A study of Rattus norvegicus with 14 samples.

Results

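Ribosomal proteins of the cytosol were followed in the left ventricle of rats with and without chemically induced diabetes. The members are the probe sets whose array annotation gives exactly 1 gene symbol of the form Rpl or Rps followed by a digit, plus Rplp0, Rplp1, Rplp2 and Rpsa, without the Rps6k kinases and without pseudogenes. The rule found 55 probe sets for 48 genes, of 31042 probe sets and 14217 genes with 1 symbol. Rplp1 and Rplp2 had no probe set under it, and 36 further probe sets carried several symbols and were left out. By role, 29 of the genes code for proteins of the large subunit, 13 for proteins of the small subunit, and 6 are relatives under similar symbols (Rpl3l, Rpl7l1, Rpl26l1, Rpl39l1, Rps27l and Rps4y2).

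Under halothane, control rats received saline into a tail vein and diabetic rats streptozotocin (STZ) at 60 mg/kg, a toxin of the insulin-secreting beta cells of the pancreas. Hearts of both groups were taken 16 weeks later, perfused with buffer, and the left ventricle was dissected. RNA of 7 control and 7 diabetic animals was measured on 14 Affymetrix whole-genome rat arrays, 1 animal per array. The labels name male Wistar rats for the diabetic group and no strain or sex for the controls, and they give no age. STZ also acts on other tissues, and no blood glucose values were used here. RNA came from either of 2 extraction kits, with no record here of the kit used for each animal.

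The ribosome reads messenger RNA and joins amino acids into protein. Its small subunit decodes the message, and its large subunit forms the peptide bond. Ribosomal protein genes are among the most strongly expressed genes of any cell, their products are needed in equal numbers, and their messages usually begin with a run of C and T, the terminal oligopyrimidine tract, through which insulin and mTOR signalling controls their translation. In heart and skeletal muscle Rpl3 has a close relative, Rpl3l, that can take its place in the large subunit.

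The median deposited signal ran from 14.8 to 85.3 between arrays, so signals were brought to a common trimmed mean, raised by 50, put on the log2 scale and quantile normalised across arrays. Values below are on this log2(scaled signal + 50) scale, and differences are diabetic minus control. A gene is given by its brightest probe set. A call is a limma p, Benjamini-Hochberg adjusted over all 31042 probe sets, under 0.05. Of 14217 genes 245 were called, 1.72%, with 134 higher (0.943%) and 111 lower (0.781%). The arrays were split here into 3 sets by their control probe sets (poly-A spike-ins and beta-actin), called array sets A, B and C below, with 2 control and 2 diabetic arrays each in A and B and 3 and 3 in C. Of 9 ventricular muscle markers 8 were measured and lay between 13.92 and 15.23 in every animal, near the top of the range. Of these 8, 6 were below 0 (median -0.05), and 1, Myh6, was lower at an unadjusted p under 0.05 and without overlap. Atrial markers were present too, with a mean of their 4 log2 signals from 9.36 to 13.04 in controls and from 9.80 to 13.21 in diabetic animals. All 4 were above 0, by 0.56 to 1.32 with a median of 1.03, and 1 had an unadjusted p under 0.05. In RNA of whole tissue, fewer cells of a type and less RNA per cell cannot be told apart.

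The terminal oligopyrimidine tract is shown first, because it is the known sequence feature of these genes. RefSeq windows around the annotated start (assembly GRCr8) were matched for 41 of the 48 genes. The 7 without a window were Rpl23a, Rpl27, Rpl30, Rpl37a, Rpl7, Rps29 and Rps9. The search was for an unbroken run of at least 8 bases that are C or T, touching any of the 5 bases on either side of the start, on the transcribed sense strand only since the tract is read in the RNA. Among subunit genes 19 of 35 held one (54.3%), and among the relatives 1 of 6, against 2376 of 27457 RefSeq genes (8.65%). A match is a description of these letters, and an annotated start can lie some bases from the true one. The windows below run from 15 bases before to 15 bases after the start, 5′ to 3′, with the run in capitals. They show the subunit genes with a window and an unadjusted p under 0.05 (Rps28, Rpl35, Rps24, Rpl12, Rpl3, Rpl22, Rpl34 and Rps23), Rpl3l, and Rpl21 and Rps6 as genes of large and small difference without a run at the searched bases. Of the 8, 6 held a run, and Rpl12 and Rpl3 did not.
Rps28 (chr7:15311319-15311348, minus strand): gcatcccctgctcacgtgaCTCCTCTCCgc
Rpl35 (chr3:43165907-43165936, minus strand): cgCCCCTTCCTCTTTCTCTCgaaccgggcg
Rps24 (chr16:96502-96531, plus strand): tgagcggTCCTCTTTTCCTCCTTTacagct
Rpl12 (chr3:36661925-36661954, plus strand): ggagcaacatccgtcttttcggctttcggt
Rpl22 (chr5:168117946-168117975, plus strand): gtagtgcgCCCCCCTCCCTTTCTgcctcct
Rpl34 (chr2:221962269-221962298, minus strand): CCCCTTCCTTTTCCTCTTCCggggacggtg
Rps23 (chr2:23814502-23814531, plus strand): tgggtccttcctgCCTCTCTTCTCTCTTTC
Rpl21 (chr12:13386139-13386168, minus strand): ttcctttccgccggggcagccatcttccag
Rps6 (chr5:106420526-106420555, minus strand): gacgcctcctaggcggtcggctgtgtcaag
Rpl3 (chr7:113507976-113508005, minus strand): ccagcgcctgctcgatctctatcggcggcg
Rpl3l (chr10:14258431-14258460, plus strand): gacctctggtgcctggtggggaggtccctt
In Rps24 the run spans the annotated start, from base -8 to base 9. The Rps23 run, from base -2 to base 19, goes on past the end of the window shown. In Rps28 it begins inside the transcript at base 5. Rpl12 has a run of 7 bases across the start, 1 short of the minimum. The Rpl21 window opens with an unbroken stretch of C and T longer than the minimum. It ends before the searched bases and was not counted. Rpl3 has its longest run of 5 bases exactly from the start, under the minimum searched for, and Rpl3l has a longest run of 3.

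Nearly all subunit genes lay slightly higher in diabetic hearts, but none of the 48 genes was called. The difference was above 0 for 45 of the 48, against 49.6% of all genes, and its median was 0.13 (all genes -0.0019). By limma 0 were called higher and 0 lower, against 0.943% and 0.781% of all genes. The same held for their 55 probe sets, against 1.14% of all probe sets called (0.619% higher and 0.522% lower). At an unadjusted p under 0.05, 9 were higher and 1 lower, against 5.59% and 5.94% of all genes. The 9 became 14 with cyclic loess, without scaling, with array set as a block or among probe sets of mean log2 signal at least 8, 16 with 200 added in place of 50 and 19 with a robust variance prior that follows the signal level. They became 1 with replicate number as a block, 3 without control replicate 3, 5 without control replicate 6 or diabetic replicate 7, and 1 without the 3 arrays of lowest signal (diabetic replicate 1 and control replicates 3 and 5), where 41 of the 48 genes were above 0 with a median of 0.11. The largest differences were 0.32 for Rps28 on the higher side and -0.42 for Rpl3l on the lower side. Groups did not overlap for 3 of the 48 genes (Rpl7, Rps23 and Rps29), against 1.83% of all genes. All 3 are among the 39 members with a mean log2 signal of at least 12. Of 794 other genes at or above this threshold, 59 did not overlap, a similar share. Of those 794 genes, 59 were higher and 86 lower at an unadjusted p under 0.05, against 9 and 1 of the 39 members.

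**Figure D1:**
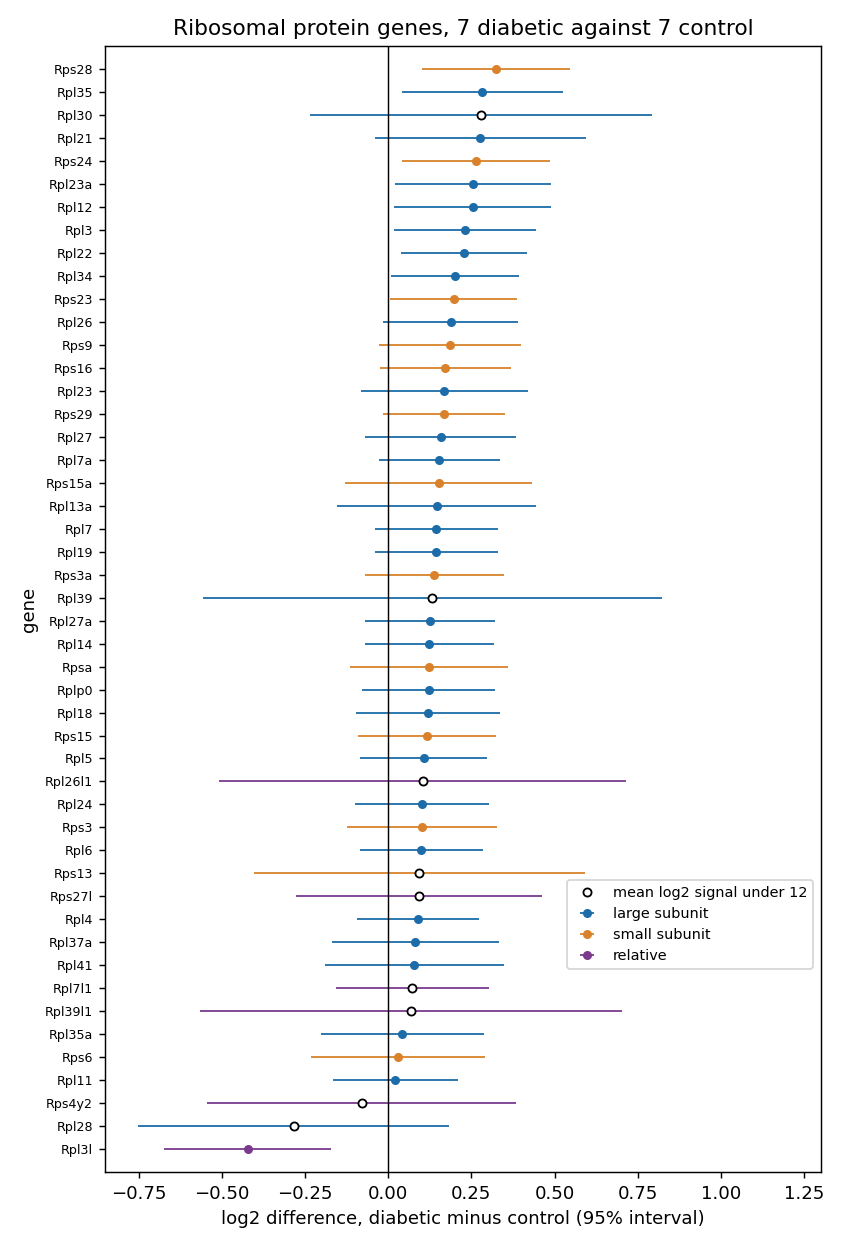
Log2 difference, diabetic minus control (x axis, with 95% limma interval), for each of the 48 genes (y axis, ordered by the difference), coloured by role, with open points for mean log2 signal under 12. Most intervals cross 0 while 45 of 48 points lie to its right, and Rpl3l lies alone at -0.42 with an interval below 0.

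Signal separated the genes into a large bright group and a few dim ones. Of the 48 genes, 39 had a mean log2 signal of at least 12, and 38 of these are subunit genes, lying from 12.79 to 14.81. Those 38 stood between the 98.1th and the 99.9th percentile of all probe sets by mean signal. The highest deposited signal of any of them was 15256, below the highest of the table, 22369. The other 9 genes lay between 6.47 and 10.23 (Rpl28, Rpl30, Rpl39, Rps13 and 5 relatives), and the median standard deviation between animals within groups was 0.47 for them against 0.12 for the 38.

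For the 38 bright subunit genes the difference ran from 0.02 (Rpl11) to 0.32 (Rps28), with a median of 0.15, or 1.11-fold. All 38 were above 0, and for 23 of them each of the 7 diabetic animals exceeded the control median. The remaining bright member, Rpl3l, was set apart by role as a relative and lay at -0.42. The 95% interval lay within 1.5-fold in either direction for 37 of the 38, and excluded 0 before adjustment for 9. The exception was Rpl21, whose interval reached 1.51-fold. Other genes with a mean log2 signal of at least 12 were more often below 0. Of these 794 genes, 39.8% were above 0 and the median was -0.04. They were not matched in signal: their mean log2 signals had a median of 12.81, against 13.77 for the 38 genes. These are counts over genes of the same arrays, not independent replicates.

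**Figure D2:**
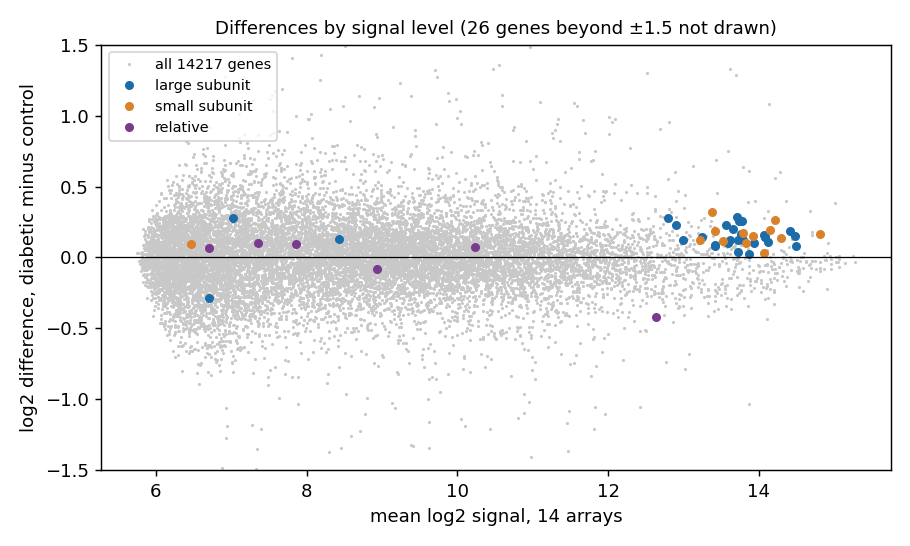
Log2 difference, diabetic minus control (y axis), against the mean log2 signal of 14 arrays (x axis), with all 14217 genes in grey and the 48 ribosomal protein genes coloured by role (26 genes beyond 1.5 in either direction are not drawn). The bright subunit genes form a compact cloud just above 0 at the right, between 12.79 and 14.81, with Rpl3l below it.

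Averaged per animal, the 38 bright subunit genes had a mean log2 signal of 13.62 at the lowest, 13.70 at the median and 13.80 at the highest in controls. In diabetic animals the corresponding values were 13.79, 13.85 and 13.93. The groups overlapped only by control replicate 2 (13.80), which lay just above diabetic replicate 5 (13.79). The group means were 13.70 ± 0.06 and 13.86 ± 0.05 (SD, n = 7).

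This order held inside each array set. Relative to the mean of each gene over 14 arrays, controls of set A lay between -0.06 and 0.02 and its diabetic animals between 0.12 and 0.15. In set B the values were -0.08 to -0.05 in controls and 0.05 to 0.07 in diabetic animals, and in set C -0.16 to -0.10 and 0.02 to 0.10. The median difference of the 38 genes was 0.15, 0.13 and 0.16 within A, B and C, with 37, 36 and 35 genes above 0. The log2 ratio of 3′ to 5′ probe sets of beta-actin, a measure of RNA integrity, was 1.41 to 1.71 in set A, 0.67 to 0.84 in set B and 0.67 to 1.47 in set C. With it as a covariate the median was 0.14.

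**Figure D3:**
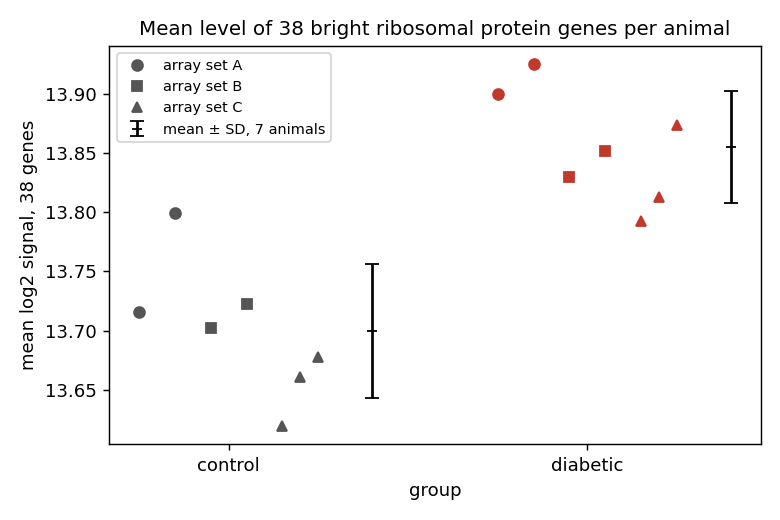
Mean log2 signal of the 38 bright subunit genes (y axis) for each animal by group (x axis), with symbols for array sets A, B and C and bars for the mean ± SD of 7 animals. In each set the diabetic animals lie above the controls, and over all sets they overlap only by control replicate 2 at 13.80.

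Markers of several other cell types also lay above 0 in diabetic hearts. Of 5 macrophage markers (Cd68, Cd163, Mrc1, Csf1r and C1qa) all were above 0 with a median of 0.59, 3 of them at an unadjusted p under 0.05 and 0 called by limma. The mean of their log2 signals ran from 8.93 to 9.79 in controls and from 9.50 to 10.25 in diabetic animals. All 3 endothelial markers measured were above 0 (median 0.18), 1 of them at an unadjusted p under 0.05, and the 4 atrial markers had a median of 1.03. Fibroblast, smooth muscle and fat cell markers had medians of 0.00, 0.02 and 0.10 with none at an unadjusted p under 0.05, and lymphocyte markers 0.17 with 1. Above 0 were 3 of 5 fibroblast, 2 of 3 smooth muscle, 3 of 4 fat cell and 2 of 4 lymphocyte markers. The fat cell and lymphocyte markers were dim, with median log2 signals of 6.47 and 6.46. The 1 red cell marker measured differed by 0.69. Limma called 0 in each of these lists. The part of these cell types in the ribosomal protein values, Rpl3l included, was not tested.

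Proteins of the small subunit surround the channel that holds the messenger RNA. All 13 genes were above 0, with a median of 0.15, and 3 had an unadjusted p under 0.05 (Rps28, Rps24 and Rps23). Rps28, a small protein near the mRNA exit site, had log2 signals of 13.02, 13.20 and 13.54 (lowest, median, highest) in controls and 13.40, 13.58 and 13.69 in diabetic animals. All 7 diabetic values exceeded the control median and 4 exceeded every control. The difference was 0.32 ± 0.10 (SE, n = 7 per group), 1.25-fold with an interval from 1.07 to 1.46 (limma adjusted p = 0.230). Limma called it with a robust variance prior that follows the signal level. Within array sets A, B and C it was 0.36, 0.27 and 0.34.

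Rps24, a protein mutated in some inherited anaemias of the Diamond-Blackfan type, had 13.81, 14.13 and 14.28 in controls and 14.20, 14.32 and 14.57 in diabetic animals. Of the diabetic values 5 lay above all controls, and the difference was 0.26 ± 0.11 (adjusted p = 0.386). A second, much dimmer Rps24 probe set (mean 7.27) differed by 0.19. Rps23, which lies in the decoding centre, ran from 13.96 to 14.14 in controls and from 14.14 to 14.37 in diabetic animals, whose lowest value lay just above the highest control. Its difference was only 0.20 ± 0.09 (adjusted p = 0.496). Rps29, another protein of the small subunit, was also without overlap, with 14.61 to 14.79 in controls and 14.81 to 14.97 in diabetic animals and a difference of 0.17.

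Some small subunit genes differed very little. Rps6, the target of the S6 kinases downstream of insulin and mTOR, had 13.85, 14.02 and 14.29 in controls and 13.88, 13.97 and 14.45 in diabetic animals. Its groups overlapped throughout and the difference was 0.03 ± 0.12, with an interval from -0.23 to 0.29. Rps3, which also takes part in DNA repair, had 13.69, 13.76 and 13.83 in controls and 13.57, 13.93 and 14.08 in diabetic animals, where 5 animals lay above all controls and 2 below them (0.10 ± 0.11). Rpsa, the protein also known as the laminin receptor, had 3 probe sets with mean log2 signals of 13.22, 12.47 and 10.92. Their differences were 0.12, 0.20 and -0.12, and so disagreed in sign. The dimmest, at -0.12, is of a type open to cross-hybridisation, and its interval ran from -0.45 to 0.21. On the brightest, controls had 13.00, 13.14 and 13.38 and diabetic animals 12.92, 13.33 and 13.57.

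Proteins of the large subunit include those at the mouth of the exit tunnel and those of the stalk. Of 29 genes 28 were above 0, with a median of 0.14, and 6 had an unadjusted p under 0.05 (Rpl35, Rpl22, Rpl23a, Rpl3, Rpl12 and Rpl34). Rpl35, at the mouth of the exit tunnel, had 13.31, 13.56 and 13.86 in controls and 13.71, 13.79 and 14.09 in diabetic animals. All 7 diabetic values exceeded the control median and 3 exceeded every control (0.28 ± 0.11, 1.22-fold, limma adjusted p = 0.398). Rpl23a, to which signal recognition particle binds at the tunnel exit, had 13.32, 13.66 and 13.82 in controls and 13.69, 13.89 and 13.96 in diabetic animals (0.26 ± 0.11, adjusted p = 0.451). Both genes thus had shifted but overlapping groups.

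Rpl21 had 12.45, 12.54 and 13.03 in controls and 12.63, 12.81 and 13.46 in diabetic animals. Its difference of 0.28 ± 0.15 was uneven, at 0.21, -0.01 and 0.51 within array sets A, B and C. Rpl22, an RNA-binding protein not needed for translation itself, ran from 13.35 to 13.63 in controls and from 13.61 to 13.78 in diabetic animals, of which 6 lay above all controls (0.23 ± 0.09, adjusted p = 0.378). Rpl7 had non-overlapping groups, 13.90 to 14.07 and 14.08 to 14.26, with a difference of 0.15 ± 0.09 (adjusted p = 0.661). Rpl26, which contacts the tunnel exit, had 14.18, 14.30 and 14.46 in controls and 14.36, 14.50 and 14.67 in diabetic animals, of which 5 lay above all controls (0.19 ± 0.10).

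Rpl5 and Rpl11 form with 5S ribosomal RNA a particle that can bind Mdm2, the ligase that degrades p53. Rpl5 had 13.94, 14.06 and 14.23 in controls and 14.07, 14.17 and 14.27 in diabetic animals (0.11 ± 0.09). Rpl11 had 13.80, 13.87 and 13.92 in controls and 13.70, 13.90 and 13.98 in diabetic animals, with a difference of 0.02 ± 0.09 and an interval from -0.17 to 0.21. Rplp0, the base of the stalk that recruits elongation factors, had 13.52, 13.67 and 13.82 in controls and 13.62, 13.82 and 13.87 in diabetic animals (0.12 ± 0.09). Rpl13a, like Rplp0 often used as a reference gene in PCR, had 12.67, 13.19 and 13.54 in controls and 13.06, 13.28 and 13.58 in diabetic animals (0.15 ± 0.14, interval from 0.899-fold to 1.36-fold), and its difference was 0.062 without control replicate 5. The groups of these 4 genes overlapped. Rpl32 and Rps18, also used as references, had no probe set with 1 symbol.

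The dim genes of the large subunit were measured less well. Rpl28 was the only subunit gene below 0, with 6.01, 6.97 and 7.24 in controls and 5.999, 6.69 and 7.17 in diabetic animals (-0.28 ± 0.22, interval from -0.75 to 0.18). Rpl30 had 6.05, 6.86 and 7.93 in controls and 6.72, 7.05 and 7.91 in diabetic animals (0.28 ± 0.24), and its difference was 0.14 without control replicate 3 and 0.45 without control replicate 6. Both lie near the floor that the added 50 sets, and their intervals allow changes in either direction. Rpl14, Rpl7 and Rps24 each had a bright probe set (13.00, 14.08 and 14.22) and a dim one (6.22, 7.88 and 7.27). Whether the low signals of Rpl28 and Rpl30 belong to the genes or to their probe sets was not tested. Among 6 genes with several probe sets, those of Rpl3 and Rpsa disagreed in sign.

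Rpl3l lay on the other side of 0 from the bright subunit genes. Rpl3 carries a loop that reaches towards the peptidyl transferase centre, and Rpl3l is its relative of striated muscle. Rpl3l had 12.56, 12.82 and 13.15 in controls and 12.14, 12.42 and 12.66 in diabetic animals. All 7 diabetic animals lay below the control median and 5 below every control. The difference was -0.42 ± 0.12, 1.34-fold lower with an interval from 0.627-fold to 0.887-fold, and it was not called (limma adjusted p = 0.127). Within array sets A, B and C it was -0.40, -0.43 and -0.43, and over the 14 arrays left out singly it ran from -0.47 to -0.37 with adjusted p from 0.0890 to 0.233.

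Whether Rpl3l was called depended on the fit. Limma called it with array set as a block (adjusted p = 0.0198), with a robust variance prior that follows the signal level (0.0154), with 200 added in place of 50 (0.0319) and when only probe sets with a mean log2 signal of at least 8 were tested (0.0292). Over the other fits of all 3 sets together the adjusted p ran from 0.0513 without scaling to 0.397 with replicate number as a block. The direction was the same in each of these fits.

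Rpl3 itself had 12.55, 12.80 and 13.01 in controls and 12.85, 13.03 and 13.14 in diabetic animals, and all 7 diabetic values exceeded the control median and 4 every control. The difference was 0.23 ± 0.10 (1.17-fold, limma adjusted p = 0.454). A second, dimmer Rpl3 probe set (mean 8.69) of a type open to cross-hybridisation differed by -0.04 ± 0.20. Only the brighter one was used for the ratio below.

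Within each array, the log2 difference between Rpl3l and Rpl3 was -0.45, 0.04 and 0.43 (lowest, median, highest) in controls and -0.86, -0.51 and -0.42 in diabetic animals. Of the diabetic animals 5 lay below all controls, and the overlap came from control replicate 2 (-0.45). The mean was 0.06 ± 0.29 in controls and -0.60 ± 0.17 in diabetic animals (SD, n = 7), a shift of -0.65, that is, a ratio 1.57-fold lower in diabetic hearts (exact two-sided permutation p = 0.00175, and 0.00524 adjusted over the 3 pairs tested, where the smallest possible p is 0.000583). The members were chosen with earlier results of these data known, and the permutation p does not account for that choice. The shift was -0.54, -0.73 and -0.68 within array sets A, B and C. It joins the lower Rpl3l (-0.42) and the higher Rpl3 (0.23), and all 38 bright subunit genes were above 0 (median 0.15). Whether the shift is particular to Rpl3 as the partner was not tested. The 2 signals come from different probes, so the size of the ratio in either group says nothing of the relative amounts of the proteins or messages; only its shift is comparable.

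**Figure D4:**
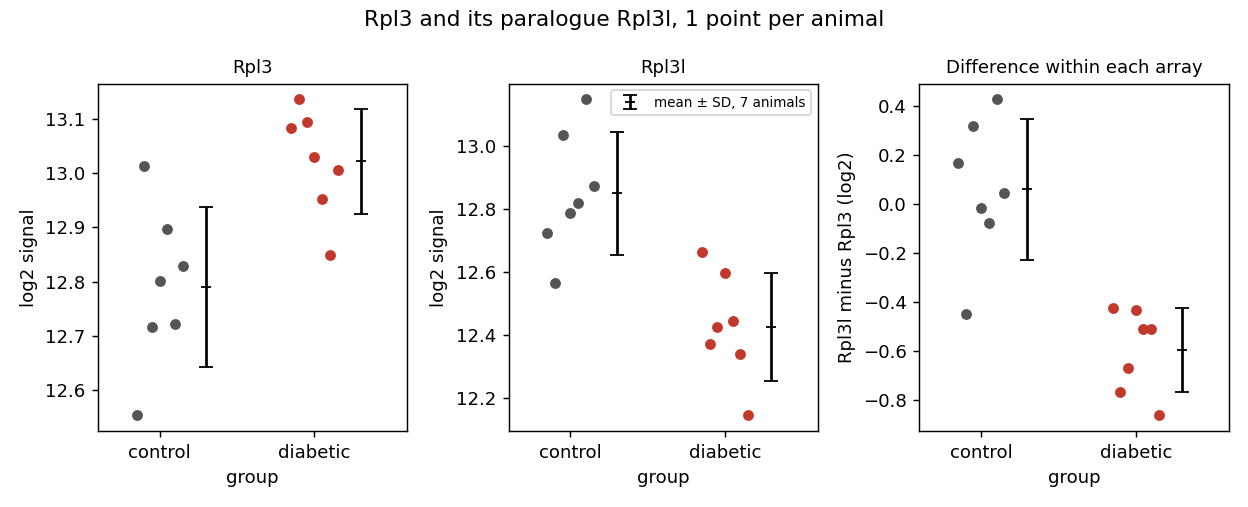
Log2 signal of Rpl3 and of Rpl3l and their difference within each array (y axes) by group (x axes), 1 point per animal, with mean ± SD of 7 animals. Rpl3 lies higher and Rpl3l lower in diabetic animals, and the difference separates the groups except for control replicate 2 at -0.45.

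For the other pairs the shift was small and did not pass the test. Rpl7l1 minus Rpl7 had medians of -3.73 in controls and -3.86 in diabetic animals (shift -0.07, exact permutation p = 0.468). Rpl26l1 minus Rpl26 had medians of -6.63 and -7.18 with a shift of the means of -0.08 (exact permutation p = 0.797). The Rpl26l1 signal was dim, at 5.80, 7.62 and 7.95 in controls and 7.01, 7.41 and 8.04 in diabetic animals. Rpl7l1 itself had 9.9998, 10.22 and 10.34 in controls and 9.96, 10.25 and 10.51 in diabetic animals (0.07 ± 0.11), and its second probe set differed by 0.20 ± 0.12. Rps4y2, a relative of Rps4x, had 8.68, 9.02 and 9.26 in controls and 8.15, 8.99 and 9.87 in diabetic animals (-0.08 ± 0.22). Rps27l, a p53-induced relative of Rps27, and Rpl39l1 differed by 0.09 and 0.07, with intervals from -0.28 to 0.46 and from -0.57 to 0.70.

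Bright subunit genes with and without the oligopyrimidine run had similar differences between the groups. The 17 with the run differed by a median of 0.15 (from 0.04 to 0.32) and the 15 without it by 0.12 (from 0.02 to 0.28). The genes shown above fall on both sides, with Rps28 and Rpl35 among those with a run. Rpl21 counts among those without, although its window holds a stretch of C and T further from the annotated start. This split was not tested.

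Genes that work with the ribosome were read from 6 lists, and limma called 0 in each of them. Among 8 elongation factors 6 were above 0, with a median of 0.08, and 1 was higher at an unadjusted p under 0.05. This was Eef1a1, which brings aminoacyl-tRNA to the ribosome and whose message also has an oligopyrimidine tract, with 13.31, 13.73 and 14.09 in controls and 13.84, 13.96 and 14.44 in diabetic animals (0.39 ± 0.14, 1.31-fold, limma adjusted p = 0.284). Eef2k, the kinase that inhibits elongation factor 2, differed by 0.25 ± 0.22. Of partners under other symbols 2 were measured. Rack1, a scaffold on the small subunit, ran from 12.93 to 13.21 in controls and from 13.21 to 13.34 in diabetic animals, the lowest diabetic value just above the highest control (0.22 ± 0.09, adjusted p = 0.409), and Naca, which binds new chains at the tunnel exit, differed by 0.17 ± 0.09.

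Initiation factors and assembly genes lay around 0. Of 34 initiation factors 13 were above 0 (median -0.02), and none had an unadjusted p under 0.05. Eif3b differed by -0.21 ± 0.12 and Eif2b4, a subunit of the exchange factor for eIF2, by -0.19 ± 0.10. Of 50 genes of ribosome assembly and ribosomal RNA synthesis 24 were above 0 (median -0.01), 1 higher and 1 lower at an unadjusted p under 0.05. They were Gar1, of the particles that modify ribosomal RNA (0.29 ± 0.13), and Tsr1, an assembly factor of the small subunit (-0.35 ± 0.12, adjusted p = 0.300).

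Among 20 genes of mTOR signalling the median was 0.01, with 1 higher and 2 lower at an unadjusted p under 0.05. Eif4ebp1, the translation repressor that mTOR inactivates, had 9.55, 10.10 and 10.38 in controls and 10.20, 10.59 and 10.98 in diabetic animals, of which 5 lay above all controls (0.61 ± 0.16, limma adjusted p = 0.0829). Deptor, an inhibitor of mTOR, had 10.18, 10.87 and 11.33 in controls and 9.74, 10.20 and 10.48 in diabetic animals, of which 3 lay below all controls (-0.71 ± 0.18, adjusted p = 0.0799). The kinase Mtor itself had 9.77, 9.89 and 10.01 in controls and 9.56, 9.69 and 9.78 in diabetic animals, of which 6 lay below all controls (-0.21 ± 0.09, adjusted p = 0.469). With array set as a block 2 genes of this list were called, and without control replicate 4 there was 1.

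Mitochondrial ribosomal proteins, which serve the separate ribosome inside mitochondria, lay on the other side of 0. Of 73 genes 19 were above 0 (median -0.06), with 0 higher and 11 lower at an unadjusted p under 0.05. The median was -0.12 without control replicate 5 and -0.04 without diabetic replicate 5. Among all genes, for comparison, 49.6% were above 0 with a median of -0.0019, and 5.94% were lower at an unadjusted p under 0.05. Among the 794 other genes with a mean log2 signal of at least 12, 39.8% were above 0 with a median of -0.04. Of these 794, 59 were higher and 86 lower at an unadjusted p under 0.05. That set is not matched in signal, since the 73 genes had mean log2 signals from 9.52 to 13.16 with a median of 11.39. Mrpl28 ran from 11.42 to 11.69 in controls and from 11.02 to 11.39 in diabetic animals, without overlap (-0.38 ± 0.10, limma adjusted p = 0.0865). Mrps16 ran from 12.39 to 12.60 and from 11.87 to 12.33, also without overlap (-0.34 ± 0.10, adjusted p = 0.151). The difference between this list and the cytosolic genes was not tested.

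**Figure D5:**
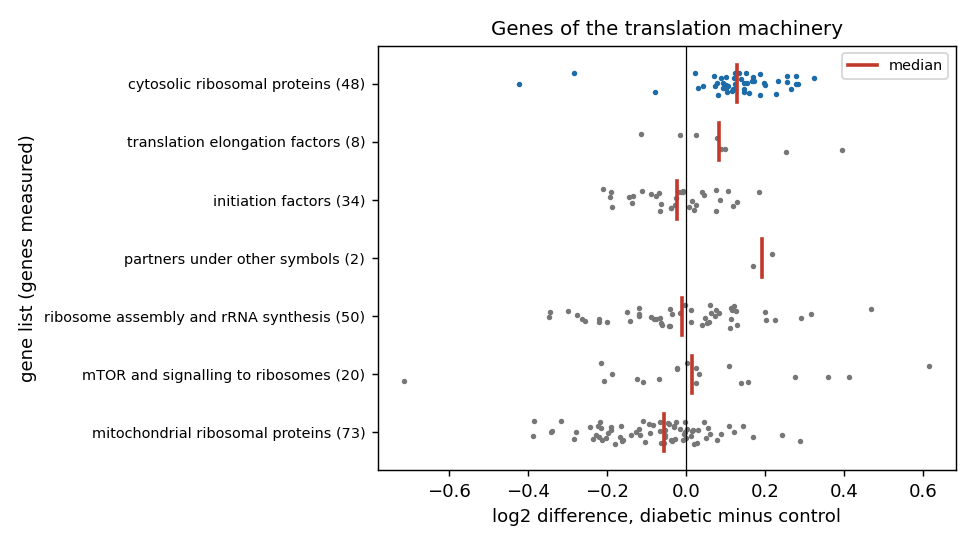
Log2 difference, diabetic minus control (x axis), of each gene in the cytosolic ribosomal protein genes and in 6 lists of the translation machinery (y axis, with the number of genes measured), with red bars at the medians. The cytosolic genes cluster to the right of 0 (median 0.13), initiation and assembly genes straddle it (-0.02 and -0.01), and mitochondrial ribosomal proteins lean left (-0.06).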

How the data were processed

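The deposited values are linear intensity signals of 31099 probe sets. Per the submitters' processing notes the tools were affy, MAS5, limma and RMA, with no roles or versions, so the step that gave the deposited values is unknown. Each array was multiplied (factors 1.60 to 8.76) so that its mean without the outer 2% on either side was 500. Then 50 was added, and log2 values were quantile normalised. Tests did not include 57 Affymetrix controls. Groups and replicate numbers came from the titles. The description of the diabetic samples names saline and was not followed, since title and source name say diabetic. Each array is a separate animal per the labels. The test was two-sided, from lmFit and eBayes of limma 3.58.1 (R 4.3.3) with group as the only term, and it was tested on simulated data. Full values are given for genes called, the 6 largest positive and the negative differences, paralogue pairs, a fixed set of well-known members and, per list, the 2 smallest p. Other genes were named after their values were seen. The members and lists were chosen with earlier results of these data known. The paralogue ratios were tested with the exact two-sided permutation test. Replicate numbers did not pair the samples: deviations of same-numbered arrays correlated between -0.16 and 0.09. Alternatives were other offsets, normalisations, variance models, blocks, a filter on dim probe sets and left-out arrays; no scaling and leaving out the 3 dimmest arrays were chosen after seeing the data. Gene symbols came from the array's annotation, and 46 of the 48 were found by gene ID in RefSeq, with 0 changed. Promoter windows came from RefSeq (GRCr8). The number of arrays limits the precision.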

Additional observations from a re-analysis of the deposited data

How the results depend on the processing

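The median difference of the 48 genes stayed between 0.11 and 0.18 over all fits, and between 0.12 and 0.15 with each of the 14 arrays left out in turn. The number of all probe sets called, 354, became 566 with 200 added, 543 with the trended robust variance prior, 645 with array set as a block, 583 among probe sets of mean log2 signal at least 8, and 190 without the 3 dimmest arrays. Within array sets A, B and C 0 probe sets were called by limma each, and with single arrays left out 261 to 332. Replicate numbers did not pair the samples, and with replicate number as a block 143 were called; 0 of 7 pairs correlated best with their own number. Ribosomal protein genes and probe sets called went from 0 to 1 (Rpl3l) with 200 added, with array set as a block and with the filter, and to 2 (Rpl3l and Rps28) with the trended robust prior. Mitochondrial ribosomal proteins and mTOR genes called went from 0 to 2 in each list under these 4 settings and without scaling. The mTOR list had 1 with array weights or the beta-actin covariate, and 0 to 1 with single arrays left out.

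Some differences turned in sign. Signs were followed only for the genes chosen for full values. Among them, those that turned within array sets were Rpl11 (-0.012 in C), Rpl13a (-0.018 in A), Rpl21 (-0.0065 in B), Rps6 (-0.054 in C), Rpl7l1 (-0.071 in C), Rpl28 (0.18 in C), Rps4y2 (0.20 in B) and Rpl26l1 (-0.16 in A and -0.17 in B). Members outside this choice turned too, such as Rpl35a in B. Of the 38 bright subunit genes 37, 36 and 35 were above 0 within A, B and C. Rpl26l1 also turned with array weights (-0.12) and, like Rps4y2 (0.0033), without the 3 dimmest arrays (-0.094). The ratio of Rpl26l1 to Rpl26 shifted by 0.037 with 16 added and by 0.24 within C, and that of Rpl7l1 to Rpl7 by 0.076 within A and 0.018 within B. With single arrays left out, Rps6 ran from -0.033 to 0.068, Rpl26l1 from -0.15 to 0.21, Rps4y2 from -0.24 to 0.046 and the Rpl26l1 ratio from -0.31 to 0.017. The cause was not tested. Among the genes chosen for full values, single arrays moved small or dim differences by over 1.5 times: Rpl13a (0.062 to 0.21), Rpl30 (0.14 to 0.45), Rpl7l1 (0.032 to 0.12), Rpl11 (0.0050 to 0.050), Rpsa (0.075 to 0.18), Rps3 (0.067 to 0.15), Rpl28 (-0.42 to -0.19) and Eef2k (0.16 to 0.40). With single arrays left out, the shift of the Rpl3l to Rpl3 ratio ran from -0.74 to -0.59, with exact permutation p from 0.000583 to 0.00233. Within array sets it was -0.54, -0.73 and -0.68, where the permutation test on 2 against 2 or 3 against 3 arrays cannot reach 0.05 (smallest p 0.333 and 0.1). Signal limits the 9 dim genes, whose spread between animals exceeds their differences.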

Other observations

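The 36 probe sets left out because they carry several symbols, at least 1 of them of a cytosolic ribosomal protein or a related symbol, were measured in the same fit. Of these, 30 were above 0 with a median difference of 0.15, 0 were called by limma, and 6 were higher and 0 lower at an unadjusted p under 0.05. Among the 33 with a mean log2 signal of at least 12, 29 were above 0 (median 0.16, from -0.06 to 0.37). Averaged per animal and relative to each probe set's mean, they lay at -0.22, -0.04 and 0.08 (lowest, median, highest) in controls and at -0.05, 0.09 and 0.20 in diabetic animals, so the groups overlapped. They come from the same arrays as the 48 genes and are not independent animals.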
